A study of Drosophila melanogaster with 4 samples.

Results

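The Stellate genes were followed in RNA sequencing of testes from 5-day-old *Drosophila melanogaster* males of 2 genotypes, WT (*Canton S*) and the *sws1* mutant of the *swiss cheese* gene, with 2 biological replicates of each. Members were all genes whose symbol begins with Ste:, together with *SteXh:CG42398*, *Ste12DOR* and *Ssl*. Of the 15 such genes in the annotation (BDGP6.54, from Ensembl), 14 had a row among the 13771 genes of the count table, and *Ste:CG33245* was not analysed here. Each library was made from dissected testes of many males, so that a smaller number of cells of a type and a lower amount of RNA in each cell cannot be told apart. The *sws1* stock and *Canton S* have separate origins, and neither the labels nor the methods say whether the remainder of the X chromosome or the Y chromosome was matched, so genotype at *sws* and genetic background cannot be told apart.

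Stellate genes encode a protein related to the regulatory beta subunit of casein kinase 2, a protein kinase of all eukaryotic cells. In normal males their transcripts are kept low in the germline by small RNAs (piRNAs) made from the related *Suppressor of Stellate* repeats on the Y chromosome. When these repeats are missing, Stellate RNA accumulates in spermatocytes and the protein forms crystals, and such males have low fertility or are sterile. *Ssl* is a diverged autosomal relative that encodes a testis-specific beta subunit of casein kinase 2. None of the 34 annotated *Su(Ste)* genes had a row, and they were not analysed here.

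The reading of these genes is limited by their sequence similarity. The deposited counts are whole reads for each annotated transcript, and the sources used here do not state how reads that fit several copies were treated. Such reads may have been dropped or divided, so single copies are uncertain and the sum over copies is given beside them. Libraries held between 2218335 and 4498060 counts. Levels are given as CPM (counts per 1000000 counts, with library sizes scaled by TMM), and a gene was called when its Benjamini-Hochberg adjusted p in edgeR's quasi-likelihood test was under 0.05 with an absolute log2 fold change (log2FC) above 0.3.

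Most reads counted on the 13 copies other than *Ssl* were assigned to *SteXh:CG42398* (FBgn0259817). This gene has 3 exons with 615 exonic bases and lies at positions 1449 to 2180 of the unplaced scaffold 211000022279188, and its symbol refers to the heterochromatin of the X chromosome. It held 240 of the 270 counts of these copies (88.9%), while *Ssl* alone had 838 counts. Its share of these counts was 91.9% in WT replicate 1 (Wilson 95% interval 86.0 to 95.4) and 88.0% in WT replicate 2 (78.7 to 93.6). In *sws1* it was 86.1% (71.3 to 93.9) in replicate 1 and 79.2% (59.5 to 90.8) in replicate 2. The shares were lower in both mutant libraries, but the intervals, which cover counting error only, overlap. If reads that fit several copies were dropped, these shares need not be those of the RNA made by each copy.

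*SteXh:CG42398* was lower in *sws1* testes. WT replicates 1 and 2 held 124 and 66 of its reads, and *sws1* replicates 1 and 2 held 31 and 19. Scaled to library size, this is 29.1 and 25.8 CPM in WT against 12.4 and 8.28 CPM in *sws1*. The genotypes did not overlap, and the lower WT library was 2.09-fold above the higher *sws1* library. The WT mean was 27.5 ± 2.34 CPM and the *sws1* mean 10.3 ± 2.89 CPM (SD, n = 2 each). The log2FC was −1.41 ± 0.25 (standard error), at an edgeR adjusted p = 0.000272. Of the 9634 genes tested, 1.45% had a lower log2FC. *SteXh:CG42398* was the 1 member called among the 2 that passed the filter on low counts, the other being *Ssl*. As a background, 1109 of the tested genes (11.5%) were called lower in *sws1*, 9.38% were called higher and 20.9% in either direction.

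The decrease was called by DESeq2 as well (log2FC −1.43, adjusted p = 0.0254), which called 5.52% of genes lower. With each library left out in turn it stayed called, with a log2FC between −1.73 (without *sws1* replicate 1) and −1.16 (without *sws1* replicate 2). In these fits, 7.65% (without WT replicate 1), 9.47% (without WT replicate 2), 8.92% (without *sws1* replicate 1) and 10.6% (without *sws1* replicate 2) of genes were called lower. The call was lost when edgeR was run on the deposited transcripts instead of counts summed per gene. There the same counts gave a log2FC of −1.39 with an adjusted p of 0.173, and 0 of 14158 transcripts were called in that fit, while 2414 had an unadjusted p under 0.05.

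**Figure D1:**
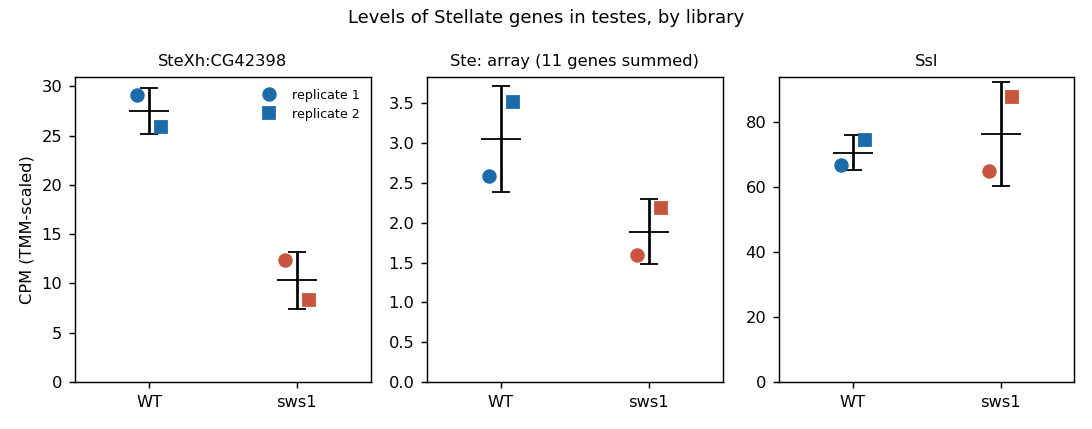
Levels of *SteXh:CG42398*, of the 11 genes of the Ste: array summed and of *Ssl* in each library, in CPM after TMM scaling, on axes that start at 0 and differ between panels. Circles and squares are replicates 1 and 2, and bars are the mean ± SD (n = 2). The WT and *sws1* libraries are separate for *SteXh:CG42398* (25.8 CPM or more against 12.4 or less) and overlap for *Ssl*.

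The tandem array of Ste: genes on the X chromosome held few reads in both genotypes. It spans 15.0 kb on the minus strand (X, 14046772 to 14061817) and contains 12 annotated genes, 11 of them with a row. Each has 3 exons, with 604 to 608 exonic bases, except *Ste:CG33236* with 999. The starts of neighbouring rows lie 1239 to 1270 bases apart, and the single spacing of 2538 bases is where *Ste:CG33245* sits.

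All 11 genes together had 29 counts, with 11 and 9 in WT and 4 and 5 in *sws1*. Of the 11 genes, 5 (*Ste:CG33247*, *Ste:CG33246*, *Ste:CG33243*, *Ste:CG33242* and *Ste:CG33238*) had no count in any library. A count of 0 among 11773506 allows up to 3 counts, or 0.255 CPM on the pooled libraries. The absence of reads on these copies is no measure of their transcription, since reads that fit several copies may not have been counted.

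The other 6 genes had between 2 and 11 counts each over the 4 libraries. *Ste:CG33237* had 0 and 3 WT counts and 3 and 5 in *sws1*, and was the only array gene with reads in *sws1* replicate 2. *Ste:CG33244* had 5 and 3 WT counts and 1 and 0 in *sws1*, and was the only one with reads in both WT libraries. *Ste:CG33241*, *Ste:CG33239* and *Ste:CG33236* had 2 counts each, all in WT replicate 1, and *Ste:CG33240* had 3 counts, all in WT replicate 2. The array copies that held reads thus differed between replicates of 1 genotype.

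**Figure D2:**
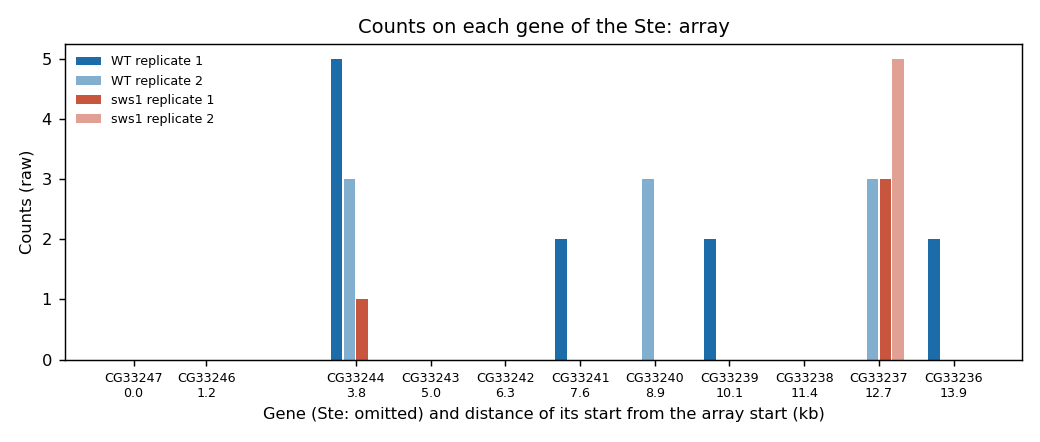
Raw counts on each of the 11 Ste: genes with a row, placed by the distance of their start from the start of the array (kb), with 1 bar for each library. No gene exceeds 5 counts in a library, and 5 genes have none.

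Summed over the array, the WT libraries stood at 2.59 and 3.52 CPM and the *sws1* libraries at 1.60 and 2.18 CPM. These libraries do not overlap, but the counts were below the minimum for testing in edgeR. With no filter in edgeR the log2FC of the array was −0.66 (standard error 0.69, adjusted p = 0.597), and DESeq2 gave −0.70 (standard error 1.18, adjusted p = 0.915). From the pooled counts, 20 in WT and 9 in *sws1*, the ratio of *sws1* to WT was 0.706, with an exact 95% interval from 0.283 to 1.62 that covers counting error only. A difference in the array was therefore not detectable from so few counted reads. Reads that fit several copies may not have been counted, so depth is not shown to be the limit. *Ste12DOR*, a single copy 45.9 kb from the array (X, 14000210 to 14000889), had 0 counts in both WT libraries and a single count in *sws1* replicate 1.

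Taken as 1 feature, the 13 copies held 135 and 75 reads in WT against 36 and 24 in *sws1*. This is 31.7 and 29.4 CPM against 14.4 and 10.5 CPM, and the genotypes did not overlap. The mean sum was 30.5 ± 1.67 CPM in WT against 12.4 ± 2.76 CPM in the mutant (SD, n = 2 each). In edgeR on the whole table with the copies replaced by their sum, the log2FC was −1.29 ± 0.23 (standard error) at an adjusted p = 0.000309. Since *SteXh:CG42398* supplies most of this sum, it adds little that is separate from that gene.

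*Ssl* was not called. The gene (FBgn0015300, 2R, 24499243 to 24500267, minus strand) had 284 and 190 WT counts and 163 and 201 in *sws1*. Its WT levels of 66.7 and 74.4 CPM compare with 65.0 and 87.6 CPM in *sws1*, so that the genotypes overlapped. The log2FC was 0.12 ± 0.17 (standard error), with an approximate 95% interval from −0.21 to 0.44 (edgeR adjusted p = 0.671). Without *sws1* replicate 2 the log2FC turned to −0.11, so no direction can be given.

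Relative to *Ssl* in the same library, *SteXh:CG42398* stood at 0.437 and 0.347 in WT and at 0.190 and 0.0945 in *sws1*, as ratios of counts. This ratio needs no scaling between libraries, and its values did not overlap between genotypes. An exact two-sided permutation test over the 4 libraries gave p = 0.333, the smallest p that 2 against 2 libraries allow. The difference between the responses of the genes therefore could not reach the threshold in this test.

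**Figure D3:**
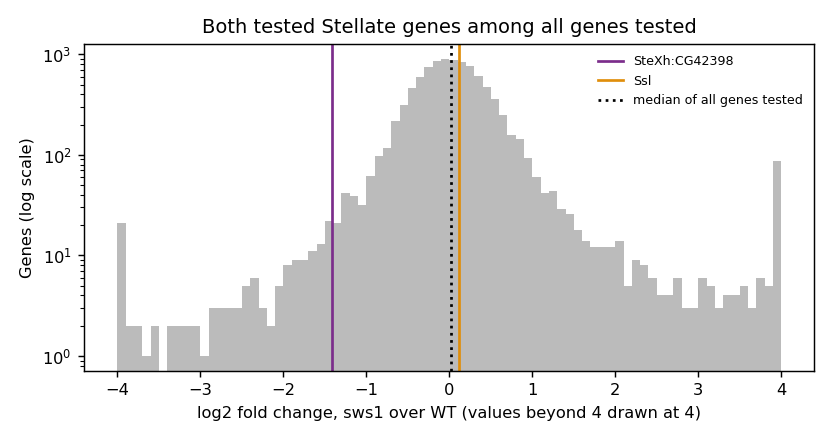
Number of genes (log scale) at each log2FC of *sws1* over WT among the 9634 genes tested, with values beyond 4 drawn at 4. Vertical lines mark *SteXh:CG42398* at −1.41, *Ssl* at 0.12 and the median of all genes tested at 0.02 (dotted).

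Expressed per kilobase of exon, with the union of the exons of all annotated transcripts as the length, *SteXh:CG42398* had 44.7 CPM in WT and 16.8 CPM in *sws1*. This level exceeded those of 71.8% of the tested genes in WT and of 51.5% in *sws1*. Reads were counted per transcript, and how reads shared by several transcripts of a gene were treated is not stated. Levels of genes with a single transcript, such as *SteXh:CG42398*, *Ssl* and *CkIIbeta2*, may therefore not be comparable with those of other genes. *Ssl* had 77.7 and 84.1 CPM per kilobase. The highest of the beta subunit genes by WT level per kilobase was *CkIIbeta2* (293 CPM). *CkIIbeta* had 22.2 CPM per kilobase in WT and 23.9 CPM in *sws1*, but its length of 5705 bases joins the exons of 10 transcripts. Its place below *Ssl* and *SteXh:CG42398* in WT rests on that length, since before division by length it had 127 CPM in WT.

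The casein kinase 2 list held 5 other genes, some for subunits and some named for an interaction with the alpha subunit (*CkIIalpha-i1* and *CkIIalpha-i3*). Of the 5, 1 was called, which is no larger a share than the 20.9% of all genes called in either direction. The gene called was not a subunit gene. *CkIIalpha-i3*, named for an interaction with the catalytic alpha subunit, had 148 and 68 WT counts and 50 and 33 in *sws1*. Its level went from 34.8 and 26.6 CPM to 20.0 and 14.4 CPM, and the log2FC was −0.85 ± 0.23 (edgeR adjusted p = 0.00988). DESeq2 did not call it (adjusted p = 0.231), and neither did edgeR without WT replicate 1 (log2FC −0.63) or without *sws1* replicate 2 (log2FC −0.64). *CkIIbeta2*, another beta subunit gene, had 268 and 266 CPM in WT against 235 and 211 CPM in *sws1*, and its log2FC of −0.26 was not called (edgeR adjusted p = 0.111). *CkIIalpha*, which encodes the catalytic subunit, *CkIIbeta*, which encodes the general regulatory subunit, and *CkIIalpha-i1* had log2FC values of −0.18, 0.11 and −0.39 and were not called. The median of the 5 genes was −0.26, beside 0.02 over all genes tested.

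The promoter of the Stellate repeats is related to that of the *betaNACtes* genes, testis-specific forms of the beta subunit of the nascent polypeptide-associated complex, which binds new proteins at the ribosome. Of the 5 *betaNACtes* genes with a row, all on the X chromosome, 1 was called higher and 1 lower in *sws1*. Over all genes tested, 9.38% were called higher and 11.5% lower, and with so few genes no difference from this background is read. *betaNACtes3* had 32 and 10 WT counts and 80 and 67 in *sws1*, or 7.52 and 3.91 CPM against 31.9 and 29.2 CPM (log2FC 2.33, standard error 0.27, adjusted p = 1.95e-06, edgeR). *betaNACtes6* had 158 and 80 WT counts and 47 and 32 in *sws1*, or 37.1 and 31.3 CPM against 18.8 and 13.9 CPM (log2FC −1.07, standard error 0.22, adjusted p = 0.00121, edgeR). DESeq2 did not call *betaNACtes6* (adjusted p = 0.0641).

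These genes are also near copies of each other, between which reads may be divided, and *betaNACtes3* and *betaNACtes4* lie within the span of *dpr8* on the same strand. Summed over all 5 genes, WT stood at 113 and 97.5 CPM and *sws1* at 122 and 111 CPM, and the genotypes overlapped. *betaNACtes1*, *betaNACtes2* and *betaNACtes4* had log2FC values of −0.37, 0.46 and 0.12 and were not called. Of the general subunits, *bic*, which encodes the beta subunit, fell from 747 and 656 CPM to 487 and 458 CPM (log2FC −0.57, adjusted p = 0.000363, edgeR), and *Nacalpha*, which encodes the alpha subunit, had a log2FC of −0.07.

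**Figure D4:**
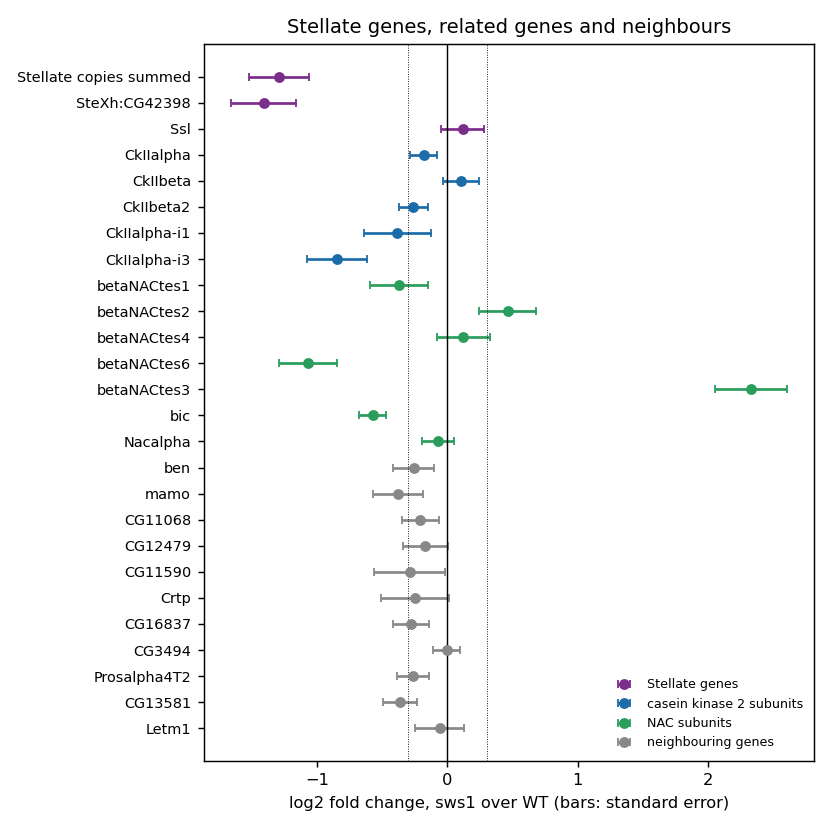
Log2FC of *sws1* over WT with its standard error for the tested Stellate genes and the sum over copies (purple), the casein kinase 2 list (blue), subunits of the nascent polypeptide-associated complex (green) and tested genes near the array and near *Ssl* (grey). In the blue list, *CkIIalpha-i1* and *CkIIalpha-i3* are named for an interaction and are not subunit genes. Dotted lines mark 0.3 on each side of 0. The sum over copies lies at −1.29, and the neighbouring genes lie between −0.38 and −0.01.

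The 3 nearest tested genes on each side of the array were *ben*, *mamo* and *CG11068* on one side and *CG12479*, *betaNACtes1* and *CG11590* on the other, all within 138 kb. Their log2FC values ranged from −0.38 (*mamo*) to −0.17 (*CG12479*), and 0 of 6 were called. Over all genes tested, 20.9% were called in either direction, and with so few neighbours no difference from this share is read. The same 6 genes are nearest to *Ste12DOR*. The 6 genes around *Ssl*, all within 24.0 kb, ranged from −0.36 (*CG13581*) to −0.01 (*CG3494*, positive in some alternatives). Of these, 0 of 6 were called, which is likewise not read as a difference from the 20.9% of all genes. *CG16837* and *CG3494*, both among these 6, overlap *CG13579* on the same strand. In fits with 1 library dropped, *CG13581* was called lower without WT replicate 2 (log2FC −0.52) and *Crtp*, another of the 6, without WT replicate 1 (−0.49) and without *sws1* replicate 2 (−0.59). *CG13581* was also called with DESeq2 size factors (−0.38) and with no filter (−0.37). For *SteXh:CG42398* no other tested gene is annotated on the same scaffold. Over the X chromosome, 98 of 1554 tested genes (6.31%) were called lower in *sws1*, beside 11.5% of all genes. On the same chromosome 124 of 1554 were called higher, also a smaller share than the 9.38% of all genes.

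Stellate transcripts are a main target of piRNAs in the testis, and 31 of the genes of this pathway with a row could be tested. Of these, 3 were called higher and 2 lower in *sws1*, where the shares over all genes were 9.38% and 11.5%, so that neither count stands out from the background. They had a median log2FC of 0.14, beside 0.02 over all genes tested. *AGO3*, a Piwi-family protein that acts with *aub* in the cycle amplifying piRNAs, fell from 144 and 144 CPM to 112 and 109 CPM (log2FC −0.38, adjusted p = 0.0405, edgeR). This call was lost with DESeq2 (adjusted p = 0.204), with upper-quartile scaling (log2FC −0.33) and with any 1 library left out (log2FC −0.40 to −0.36). *Hen1*, whose product methylates the ends of piRNAs, fell from 69.3 and 77.9 CPM to 43.1 and 34.4 CPM (log2FC −0.92, standard error 0.17, adjusted p = 0.000557, edgeR). *Hen1* overlaps *bsd* on the opposite strand.

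Among the genes that rose, *tud*, a Tudor-domain scaffold, went from 130 and 153 CPM to 218 and 207 CPM (log2FC 0.59, adjusted p = 0.00182, edgeR). *tej*, another Tudor-domain protein, had 22 and 10 WT counts and 34 and 21 in *sws1* (log2FC 1.29, adjusted p = 0.0128, edgeR). *arx*, a cofactor of silencing by Piwi in the nucleus, had 59 and 18 WT counts and 47 and 53 in *sws1* (log2FC 0.92, adjusted p = 0.0256, edgeR). DESeq2 called neither *tej* nor *arx*. In edgeR the call of *tej* was lost without WT replicate 2 (log2FC 1.12) and without *sws1* replicate 1 (0.97), and that of *arx* without WT replicate 2 (0.57) and without *sws1* replicate 2 (0.76). *aub*, which carries the piRNAs directed at Stellate, had 131 and 101 WT counts and 68 and 77 in *sws1*, and its log2FC was −0.20 (adjusted p = 0.537, edgeR), and *vas* and *spn-E* had log2FC values of −0.10 and −0.02.

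Stellate RNA is a product of spermatocytes, and 15 genes of the spermatocyte transcription programme could be tested. Of these, 3 were called higher and 2 lower, beside 9.38% and 11.5% of all genes, and the median log2FC was 0.02. With so few genes, the counts are not read as a difference from the background. *fzo*, the mitochondrial fusion GTPase of spermatids transcribed in spermatocytes, *achi*, a transcription factor of the programme, and *CycB*, a mitotic cyclin, had log2FC values of 0.72, 0.51 and 0.47. *sa* and *can*, testis-specific TAFs that activate transcription in spermatocytes, had log2FC values of −0.64 and −0.42. *fzo* overlaps *cnc* on the same strand and *sa* overlaps *rgn* on the opposite strand, and how reads in such overlaps were counted is not stated. Without WT replicate 1 the calls of *CycB* (log2FC 0.41), *can* (−0.32), *achi* (0.47) and *sa* (−0.52) were lost. Those of *CycB* (0.25) and *can* (−0.37) were also lost without *sws1* replicate 2, and that of *sa* (−0.47) without *sws1* replicate 1. Of these 5 genes, DESeq2 called *fzo* and *sa*.

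Some cell type markers moved with genotype beside the Stellate genes. For the counts called below, 11.5% of all genes tested were called lower in *sws1* and 9.38% higher. The lists are short, and their difference from this background was not tested. The summed level of 5 spermatocyte markers (*aly*, *can*, *sa*, *twe* and *fzo*) was 605 and 609 CPM in WT and overlapped with the 585 and 668 CPM of *sws1*. This sum joins opposite changes, since *fzo* was called higher and *can* and *sa* lower, while *aly* and *twe* were not called. For 2 spermatogonial markers with a row it was 25.6 and 20.7 CPM in WT against 21.1 and 25.7 CPM, and for 3 cyst cell markers 81.3 and 79.8 CPM against 97.0 and 124 CPM. The 4 spermatid markers (*dj*, *Mst87F*, *ProtA* and *ProtB*) were all called lower, with sums of 5583 and 5668 CPM in WT against 3168 and 3302 CPM in the mutant. The 7 accessory gland markers with a row went from 31.0 and 39.1 CPM to 1135 and 445 CPM in sum, and 4 of them were called. The 3 markers of the ejaculatory duct and bulb with a row went from 19.0 and 29.4 CPM to 356 and 339 CPM, and all 3 were called. *Dup99B* is on both of these lists, so it enters both sums and both sets of calls. Muscle markers summed to 199 and 200 CPM in WT against 307 and 248 CPM in *sws1*, where *Act57B* and *Mlc2* were called higher among 5 markers. The 5 fat body markers summed to 355 and 320 CPM in WT against 665 and 619 CPM, nearly all of it from *apolpp*, a lipoprotein component and the only one called, at 335 and 292 CPM in WT against 650 and 583 CPM, while *Yp1* and *Yp2* had log2FC values of −0.12 and −0.07 and *Fbp1* had 0 counts in WT. The 3 hemocyte markers summed to 156 and 127 CPM in WT against 136 and 143 CPM in *sws1*, and 0 of the 2 tested were called. The part of the marker shifts above in the decrease of *SteXh:CG42398* was not tested. The mutated gene itself, *sws* (X, 7956820 to 7968236), lies 6.08 Mb from the array. This gene had 662 and 500 WT counts against 166 and 179 in *sws1* (log2FC −1.28, standard error 0.15, adjusted p = 2.12e-06, edgeR).

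The genes whose pattern over the 4 libraries was most like that of the summed copies were *mtSSB*, *ACXD*, *Shab*, *Cyp6a14* and *Dlish*. Likeness was the Euclidean distance between log2 CPM values centred on their mean, and it ranged from 0.110 (*mtSSB*) to 0.179 (*Dlish*) among 9712 genes. With 4 libraries this describes genes with a similar ratio between genotypes. *Cyp6a14*, a cytochrome P450, had 96 and 62 WT counts and 29 and 19 in *sws1*, whereas *mtSSB*, the mitochondrial single-stranded DNA-binding protein, had 23 and 12 WT counts and 6 and 4 in *sws1*.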

How the data were processed

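RNA from WT and *sws1* testes was depleted of ribosomal RNA and sequenced as directional paired-end libraries. The authors trimmed reads with Trimmomatic, mapped them with Hisat2 and used htseq-count for reads per transcript. These raw counts are what the authors deposited. The release of the reference and the settings for strand and multiple mapping are not given in the sources used here.

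All but 10 of 29939 transcripts were matched by FlyBase identifier to BDGP6.54 and summed per gene. Each Stellate gene has 1 transcript in the table. The comparison of genotypes used edgeR 4.0.16 in R 4.3.3 (filterByExpr, TMM, robust quasi-likelihood test, genotype as the only term), adjusted over all genes tested. The adjusted p is that of edgeR unless DESeq2 1.42.0 is named. Standard errors were derived from the log2FC and the F statistic. Copies were also replaced by their sum and the table fitted again. Likeness used a prior of 0.5 counts and genes with a mean of at least 10 counts. The test was tried on simulated data. Alternatives were DESeq2, DESeq2 size factors or upper-quartile factors in edgeR, a block for the replicate number, no filter, a minimum of 10 counts per library, an unadjusted p, an absolute log2FC above 1, the deposited transcripts, and each library left out in turn. Python 3.11.15 with pandas 2.3.3, numpy 2.4.6, scipy 1.17.1 and matplotlib 3.10.9 made the tables and figures.

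The named genes are all members, *sws*, the casein kinase 2 and nascent polypeptide-associated complex lists, up to 5 called genes in each direction of the piRNA and spermatocyte lists, the 3 nearest tested genes on each side of each locus and the 5 most alike genes. A few uncalled piRNA genes and single marker genes were named after their values were seen. The members and lists were chosen with earlier results of these data known.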

Additional observations from a re-analysis of the deposited data

How the results depend on the processing

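The log2FC of the summed copies kept its direction and its call under DESeq2, other scalings and filters and with each library left out, where it ranged from −1.55 (without *sws1* replicate 1) to −1.09 (without *sws1* replicate 2). A library left alone in its genotype is assumed to vary like the other genotype. Adding *Ssl* to the sum gave −0.19 (adjusted p = 0.404, edgeR), since *Ssl* supplies most counts of that sum. The log2 ratio of the array sum, −0.69 with all libraries and below the filter for the test, ranged from −0.94 to −0.45 with each library left out. It was not called in the alternatives that tested it, edgeR with no filter (−0.66, adjusted p = 0.597) and DESeq2 (−0.70, adjusted p = 0.915). *SteXh:CG42398* was the 1 member called under every alternative of the gene table, including an absolute log2FC above 1. With the replicate number as a block, the summed copies had −1.29 (adjusted p = 0.00213, edgeR), and the block changed no call of a Stellate gene. The labels do not say whether a replicate number marks a shared preparation. Deviations of same-numbered libraries correlated at −0.0007 over genes, which with 2 libraries per genotype cannot exclude one.

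The sign of several small, uncalled values turned. Across the fits that dropped 1 library, *Ssl* lay between −0.11 and 0.32 and *CkIIbeta* between −0.069 and 0.26, both negative only without *sws1* replicate 2. The log2FC of *Nacalpha* lay between −0.20 and 0.049 (also 0.045), that of *CG3494* between −0.083 and 0.060 (also 0.014, and 0.044 with upper-quartile factors), that of *Crtp* between −0.59 and 0.037 (also 0.00071) and that of *Letm1* between −0.38 and 0.22 (also 0.075). The number of counted reads limits the array, where 29 counts over 4 libraries leave a counting interval for the ratio of *sws1* to WT from 0.283 to 1.62.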

Other observations

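*SteXh:CG42398* is 1 of 3 tested genes annotated on unplaced scaffolds, a group looked at after values were seen. *CG41561* also fell, from 172 and 170 CPM in WT to 83.8 and 124 CPM in *sws1* (log2FC −0.73, standard error 0.16, adjusted p = 0.00303, edgeR). *klhl10*, which encodes an adaptor of the ubiquitin ligase required for caspase activation in spermatids, had 245 and 270 CPM in WT against 210 and 257 CPM in *sws1* and was not called (log2FC −0.14, adjusted p = 0.457, edgeR). On the Y chromosome, where the *Suppressor of Stellate* repeats lie, 17 genes were tested. Of these, 1 was called higher and 1 lower in *sws1* (5.88% called lower), beside 9.38% higher and 11.5% lower over all genes. With so few genes, this is not read as a difference from the background. The median log2FC was −0.03, beside 0.02 over all genes tested.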
